A study of Mus musculus with 17 samples.

Results

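The transcripts of 4 secreted stress peptides, *Gdf15*, *Fgf21*, *Adm2* and *Adm*, were followed in the hearts of mice whose heart muscle accumulated mutations in mitochondrial DNA (mtDNA). These 4 of the 56748 genes of the count table were taken by gene name, and they were chosen from their difference between mutant and control hearts, so that this difference is given below as a description and was not tested. The mutant hearts (hMut, n = 9) carried *Polg* iMut/iMut and +/Ckmm-cre. In the iMut allele a floxed wild-type *Polg* cDNA with a stop signal lies in front of a mutated exon, and removal of the cassette by cre switches expression to a mitochondrial DNA polymerase that lacks proofreading. Ckmm-cre is driven by the muscle creatine kinase promoter and is active in heart and skeletal muscle fibres, so that other cell types of the heart keep the wild-type cassette. The control hearts (Ctrl, n = 8) are labelled only as controls and their genotype is not given in the labels. All mice were between 12 and 16 months old and untreated, with 1 heart and 1 library of polyadenylated RNA per mouse.

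GDF15 is a distant member of the transforming growth factor β superfamily that reaches the circulation and limits food intake through a receptor in the hindbrain. FGF21 is an endocrine fibroblast growth factor, known best as a hormone of the fasting liver, which needs the coreceptor β-klotho in its target cells. Adrenomedullin (*Adm*) and adrenomedullin 2 (*Adm2*, also called intermedin) are vasodilator peptides of the calcitonin family. Stressed mitochondria activate the transcription factors ATF4, ATF5 and CHOP in the nucleus, and *Gdf15* and *Fgf21* are textbook targets of this response in muscle, for which they are called mitokines.

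Upstream sequences are shown for *Fgf21* and *Adm2*, the pair of members with almost no transcript in Ctrl hearts, to set a promoter with an ATF4-type site beside one without it in the same window. *Fgf21* lies on the minus strand of chromosome 7 from 45263310 to 45264914 and *Adm2* on the plus strand of chromosome 15 from 89206923 to 89208934 (GRCm39). The 150 bases before the RefSeq start of each were read from RefSeq promoter windows (GRCm38.p6) and matched exactly to a single place in GRCm39, chr7:45264915-45265064 for *Fgf21* and chr15:89206773-89206922 for *Adm2*. Capitals mark matches to the searched motifs, which are, from left to right in *Fgf21*, the C/EBP-ATF response element (TGATGNAA, here on the opposite strand), the hypoxia response core (ACGTG, overlapping on both strands) and the TATA box (TATAAA).
Fgf21: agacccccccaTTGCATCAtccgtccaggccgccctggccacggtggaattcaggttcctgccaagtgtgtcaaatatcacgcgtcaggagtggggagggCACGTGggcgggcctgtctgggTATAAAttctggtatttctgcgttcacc
Adm2: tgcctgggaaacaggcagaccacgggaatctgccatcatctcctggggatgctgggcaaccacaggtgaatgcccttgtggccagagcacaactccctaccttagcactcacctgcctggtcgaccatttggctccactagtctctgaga

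In *Fgf21* the C/EBP-ATF element stood at positions -139 to -132 from the start. Among the 32851 RefSeq windows of 300 bases, 3.97% held this element on either strand, 19.6% the hypoxia response core, and 13.6% the TATA box. The windows of *Adm2* and *Adm* held none of the 6 motifs searched, which included the cyclic AMP response element (TGACGTCA, in 1.79% of windows), the AP-1 site (TGANTCA, 7.81%) and the CCAAT box (CCAAT, 37.4%). Of the 2 windows of *Gdf15*, 1 held the hypoxia response core and a CCAAT box. When the search for the C/EBP-ATF element was widened to the 1000 bases before the start of each tested gene in the count table, 11.1% of 16157 genes had a match. *Fgf21* then had a second one at -886 to -879 (chr7:45265782-45265811, capitals mark the element).
Fgf21, second match: tacagctctccTGATGAAAgaaagcctcag

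*Gdf15*, *Adm2* and *Adm* had no match in that window, which says only that these letters are not there, and 5 of 22 amino acid stress genes described further on had one.

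Total counts per heart were between 32915159 and 46486964, and mtDNA-encoded transcripts took 23.5% to 30.9% of them in Ctrl and 15.9% to 23.0% in hMut hearts. Values are given as counts and as CPM, counts per 1000000 counts of the library after scaling by edgeR's TMM factors. A floor of 3 counts in a library, equal to 0.0697 to 0.0951 CPM in the Ctrl hearts, was taken as the limit of detection. The summed CPM of 10 cardiomyocyte markers was 42556 to 71509 over all hearts. hMut replicates 6 and 9 stood apart by their macrophage markers (summed CPM of 10 genes 1272 and 665, against 253 to 373 in Ctrl and 316 to 418 in the other hMut hearts), and results are therefore also given without them. *Polg* itself was at 27.1 to 47.2 CPM in Ctrl and at 47.0 to 65.1 CPM in hMut hearts. In whole-heart RNA, fewer cells of a type and less RNA per cell cannot be told apart.

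*Gdf15* (ENSMUSG00000038508, chromosome 8, 71082043 to 71085106, minus strand) was the most abundant of the 4 in the mutant hearts. The 8 Ctrl hearts held 50 to 174 counts, or 1.16, 2.85 and 5.50 CPM as the lowest, median and highest value. The 9 hMut hearts held 188 to 4003 counts, with 5.17, 29.4 and 90.2 CPM in the same order. In detail, hMut replicates 1 to 9 were at 10.6, 5.17, 29.4, 21.4, 45.8, 69.8, 39.6, 19.7 and 90.2 CPM. Of these hearts, 8 lay above every Ctrl heart, and only replicate 2 fell just below the highest Ctrl heart, replicate 4. The log2 fold change was 3.66 (SE 0.54), and it was 3.08 with replicates 6 and 9 left out. The coefficient of variation among hMut hearts was 76.2%, and the highest hMut heart had 17.4 times the level of the lowest.

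*Fgf21* (ENSMUSG00000030827) was at or under the floor in 7 of the 8 Ctrl hearts. Ctrl hearts held 3, 4, 3, 0, 1, 2, 0 and 0 counts, 13 in all, and hMut hearts 16, 20, 56, 54, 110, 84, 88, 23 and 208 counts, 659 in all. Every hMut heart was above every Ctrl heart, with 0.433 CPM in the lowest hMut heart and 0.113 CPM in the highest Ctrl heart. Over the summed libraries the level was 42.0 times higher in hMut (exact 95% interval 24.4 to 79.4, for counting error only). The fitted log2 fold change was 5.25 (SE 0.65), a value that depends on the small count added to each library, and 4.86 without hMut replicates 6 and 9. FGF21 is a liver hormone, and traces of liver RNA were present in some libraries. The summed CPM of 8 hepatocyte markers was 397 in Ctrl replicate 3 and 127 in hMut replicate 4, and between 0.772 and 26.5 in the other hearts. *Fgf21* had 3 counts in that Ctrl heart, while hMut replicate 9, with the highest *Fgf21*, was at 3.81 CPM for the hepatocyte markers. Of the other tissues known to make FGF21, fat and pancreas, the summed markers reached at most 2.17 CPM (7 adipocyte genes) and 1.94 CPM (7 pancreas genes, with *Ins2* and *Amy2a5* at 0 counts throughout). The part of RNA from these tissues in the values of *Fgf21* was not tested.

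*Adm2* (ENSMUSG00000054136) was at or under the floor in all 8 Ctrl hearts, with 2, 2, 0, 0, 0, 1, 2 and 1 counts, 8 in all. The hMut hearts held 18, 16, 56, 56, 82, 132, 101, 37 and 178 counts, 676 in all, or 0.440, 1.38 and 4.01 CPM as the lowest, median and highest value. No hMut heart overlapped the Ctrl range, whose highest value was 0.0565 CPM. Over the summed libraries the level was 70.1 times higher in hMut (exact 95% interval 35.4 to 163, for counting error only). The fitted log2 fold change was 5.94 (SE 0.61), and it was 5.50 without hMut replicates 6 and 9. *Fgf21* and *Adm2* passed the filter on low counts only through the hMut hearts.

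*Adm* (ENSMUSG00000030790, chromosome 7, 110226868 to 110229027, plus strand), the paralog of *Adm2* and a known target of hypoxia, moved far less. It was at 5.08, 6.37 and 8.18 CPM as the lowest, median and highest value in Ctrl hearts and at 5.73, 7.53 and 10.3 CPM in hMut hearts. The groups overlapped over most of their range, and 3 of the 9 hMut hearts (replicates 3, 5 and 9) were above every Ctrl heart. The log2 fold change was 0.27 (SE 0.12), and 0.22 without hMut replicates 6 and 9. The antisense gene Gm28863 overlaps *Adm* and had at most 3 counts in any library.

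**Figure D1:**
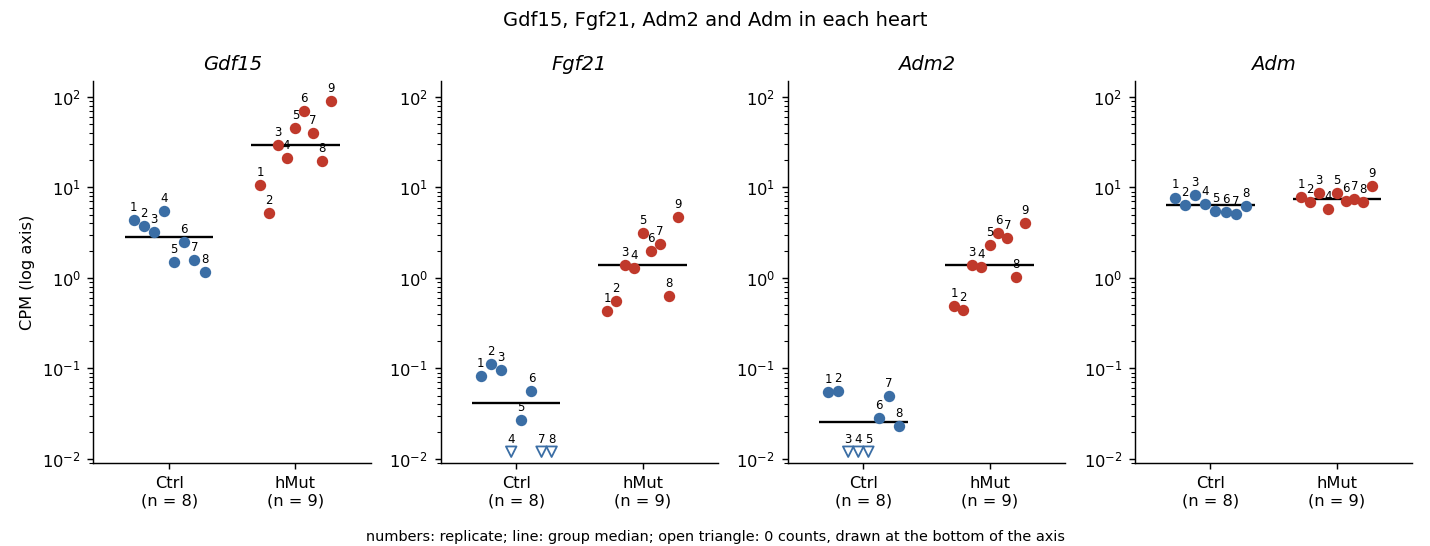
CPM on a log axis of *Gdf15*, *Fgf21*, *Adm2* and *Adm* in each of the 8 Ctrl and 9 hMut hearts, with replicate numbers, the group median as a line, and open triangles at the bottom for hearts with 0 counts. All 9 hMut hearts lie above the Ctrl hearts for *Fgf21* and *Adm2*, 8 of 9 for *Gdf15* and 3 of 9 for *Adm*.

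Against the background of the whole table, every hMut heart was above every Ctrl heart for 88 of 16195 tested genes (0.543%). At an adjusted p under 0.05 in edgeR's quasi-likelihood test, 724 genes (4.47%) differed, 548 (3.38%) higher and 176 (1.09%) lower in hMut hearts. DESeq2 gave 1010 higher and 507 lower, and limma-voom 1175 and 906. Nothing is read from these shares for the 4 members, since this contrast was used to choose them. The median log2 fold change of all tested genes was 0.00.

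Levels of different genes were compared per kilobase of gene length. In Ctrl hearts the order was *Adm* (3.95 ± 0.68 CPM per kilobase, SD, n = 8), *Gdf15* (1.59 ± 0.83), *Fgf21* (0.0491 ± 0.0487) and *Adm2* (0.0205 ± 0.0192). *Adm* was above *Gdf15* in all 8 hearts. The last pair differed by less than their spread, and both were at the limit of detection. In hMut hearts *Gdf15* came first (19.9 ± 15.2 CPM per kilobase, SD, n = 9), above *Adm* (4.77 ± 0.83) in 8 of 9 hearts, the exception being replicate 2. *Fgf21* (1.93 ± 1.47) and *Adm2* (1.44 ± 0.96) followed, with *Fgf21* the higher in 7 of 9 hearts and a difference within their spread. Both stayed below *Adm* in all 9 hMut hearts.

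The relatives of these genes were then compared. Of the 22 *Fgf* genes with a number, 12 besides *Fgf21* were tested. At the adjusted threshold of edgeR's test, which 4.47% of all tested genes passed, 0 were higher or lower. With 12 genes, 0 is near that share. The nearest to the threshold was *Fgf13* (log2 fold change -0.31, SE 0.10, adjusted p = 0.0708, edgeR). *Fgf21* went from place 15 of the family in Ctrl to place 7 in hMut hearts, below *Fgf1*, which led in both groups (48.3 ± 5.0 CPM per kilobase in Ctrl and 43.4 ± 6.0 in hMut, SD). *Gdf15* ranked first among the 10 *Gdf* genes in both groups, followed by *Gdf11* (0.878 ± 0.131 CPM per kilobase in Ctrl and 0.825 ± 0.120 in hMut, SD), and of the 4 others tested 0 passed. Those nearest to the threshold were *Gdf6* (log2 fold change 1.45, SE 0.46, adjusted p = 0.0763, edgeR) and *Gdf9* (1.04, SE 0.30, adjusted p = 0.0555). Of the calcitonin family, *Calca*, *Calcb* and *Iapp* had at most 3 counts in any heart, so that *Adm* and *Adm2* were its detected members.

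**Figure D2:**
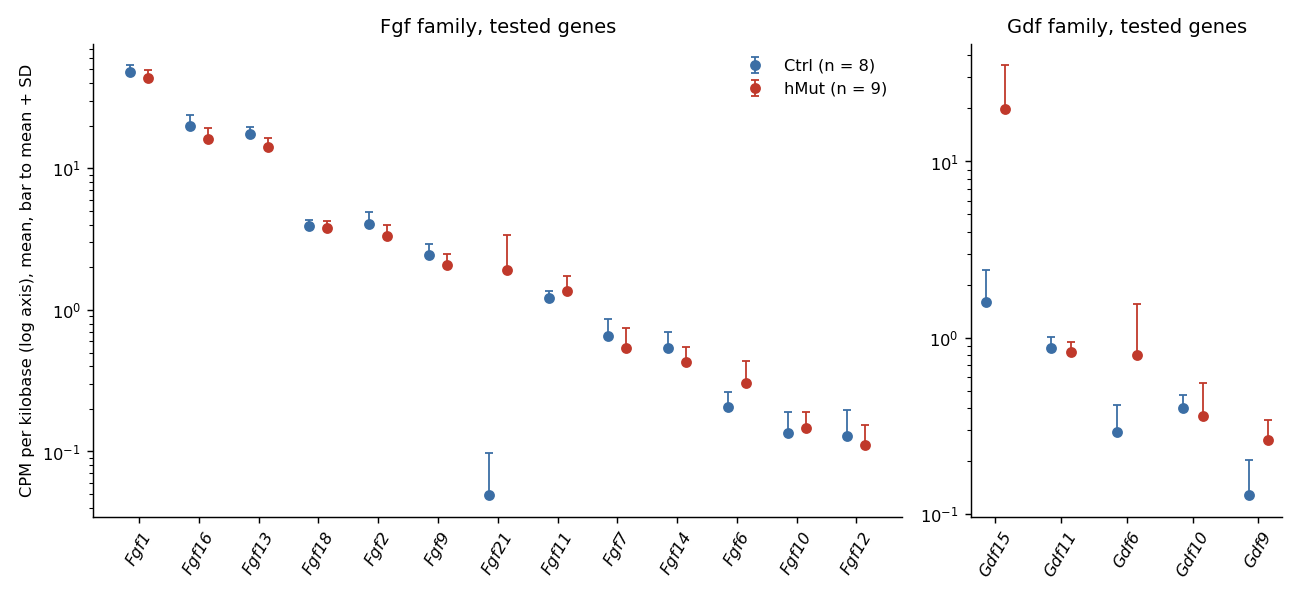
Mean CPM per kilobase on a log axis, with a bar up to mean + SD, of the tested *Fgf* and *Gdf* genes in Ctrl (blue, n = 8) and hMut hearts (red, n = 9), ordered by the hMut mean. *Fgf21* and *Gdf15* stand apart by the distance between their group means, while *Fgf1* and *Gdf11* keep similar levels in both groups.

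Receptors, processing enzymes, related peptides and, for FGF21, signalling and target genes were listed as 3 axes. They had 0 genes past the adjusted threshold of edgeR's test, which 4.47% of all tested genes passed. An unadjusted p under 0.05 was found for 4128 (25.5%) of all tested genes, against which the unadjusted counts of the lists are to be read. For GDF15, 6 of 7 genes were tested, 2 had an unadjusted p under 0.05, and the median log2 fold change was -0.02. *Gfral*, the GDF15 receptor of the hindbrain, had 0 counts in every heart, which allows up to 3 counts per library. Its coreceptor *Ret* was at 5.76 ± 1.40 CPM in Ctrl and 4.98 ± 1.32 in hMut (SD). *Furin* and the related convertases *Pcsk6* and *Pcsk7*, proteases that can cleave proforms of secreted factors, had log2 fold changes of -0.02, -0.02 and -0.05. A further convertase, *Pcsk5*, was at 0.25 (SE 0.09, adjusted p = 0.111) with 7 of 9 hMut hearts above every Ctrl heart, and the membrane protease *Mmp14* at 0.52 (SE 0.20, adjusted p = 0.121) with 5 of 9. DESeq2 also called 0 genes of this axis.

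For FGF21, 13 of 16 genes were tested, 3 had an unadjusted p under 0.05, and the median log2 fold change was 0.08. *Klb*, which encodes β-klotho, had at most 8 counts in any heart and fell under the filter. *Fgfr1*, the receptor that pairs with β-klotho, was at 32.4 ± 3.0 CPM in Ctrl and 34.4 ± 4.5 in hMut (SD). Of the genes that FGF receptor signalling through ERK is known to induce, *Etv5* had a log2 fold change of 0.63 (SE 0.18, adjusted p = 0.0514, edgeR), and it passed with hMut replicate 1, 2 or 4 left out (adjusted p 0.0144 to 0.0410) and with DESeq2 and limma-voom. *Etv4* was at 1.22 (SE 0.44, adjusted p = 0.107) and *Spry1* at 0.19 (SE 0.07, adjusted p = 0.0974), and both passed only with hMut replicate 2 left out. Others of these genes, *Dusp6*, *Spry2* and *Spry4*, had log2 fold changes of 0.19 (SE 0.13, adjusted p = 0.359), -0.03 and 0.01. The immediate early genes *Egr1* and *Fos* had log2 fold changes of -0.32 and -0.47 with SEs of 0.26 and 0.52.

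For adrenomedullin, 9 of 13 genes were tested, 4 had an unadjusted p under 0.05, and the median log2 fold change was -0.10. *Calcrl*, the receptor that both peptides share, was at 33.1 ± 2.0 CPM in Ctrl and 31.9 ± 3.0 in hMut (SD). Its partners *Ramp1*, *Ramp2* and *Ramp3*, which set the ligand preference, had log2 fold changes of -0.27, -0.10 and 0.10, with SEs of 0.19, 0.11 and 0.17. *Ackr3*, a scavenger receptor for adrenomedullin, had a log2 fold change of -0.30 (SE 0.10, adjusted p = 0.0843), and passed with hMut replicate 2 left out, with DESeq2 and with sex as a covariate. *Pam*, the enzyme that amidates both peptides, was at 742 ± 73.8 CPM in Ctrl and 881 ± 151 in hMut (SD; log2 fold change 0.25, SE 0.10, adjusted p = 0.126), and it passed with hMut replicate 2 left out (adjusted p = 0.0361).

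The listed regulators, which are transcription factors and the pseudokinase *Trib3*, differed more. Of 14 listed regulators, 7 were higher and 0 lower in hMut hearts (against 3.38% of all tested genes that were higher), with a median log2 fold change of 0.30. With hMut replicates 6 and 9 left out, 5 were higher. All gene lists were written with earlier results of these data known, so their counts are a description. *Atf5*, a factor of the mitochondrial unfolded protein response, rose from 45.3 ± 4.5 to 125 ± 32 CPM (SD; log2 fold change 1.46, SE 0.14, edgeR adjusted p = 1.22e-05). *Atf4*, the central factor of the integrated stress response, rose from 53.4 ± 4.4 to 107 ± 36.7 CPM (log2 fold change 1.002, SE 0.17, adjusted p = 0.00219). *Trib3*, a pseudokinase that ATF4 and CHOP induce and that restrains them, rose by 2.87 on the log2 scale (SE 0.31, adjusted p = 3.51e-05). For all 3, every hMut heart was above every Ctrl heart. *Cebpg*, a dimer partner of ATF4, rose by 0.52 (SE 0.10, adjusted p = 0.00452). *Atf3* and *Ddit3*, which encodes CHOP, had log2 fold changes of 1.66 and 1.23 (adjusted p = 0.0214 and 0.0262). *Atf3* lost its call with hMut replicates 6 and 9 left out together, with no filter on low counts and with replicate number as a block (adjusted p = 0.0719, 0.0593 and 0.148). *Ddit3* lost it without Ctrl replicate 1, 2 or 7 or hMut replicate 9 (adjusted p 0.0502 to 0.0554). It also lost it with sex as a covariate (0.0593), with no filter (0.0671) and with replicate number as a block (0.0801). The last of the 7, the nuclear receptor *Pparg*, had a log2 fold change of 0.33 (SE 0.09, adjusted p = 0.0481) and lost its call in 13 of the 17 fits with 1 library left out (each Ctrl heart, and hMut replicates 4, 5, 7, 8 and 9, adjusted p 0.0503 to 0.0897) and under 6 other alternatives, among them sex as a covariate (0.0710). It was named after its values were seen, as were the 7 regulators that did not pass (*Trp53*, *Hif1a*, *Cebpb*, *Nfe2l2*, *Epas1*, *Ppara* and *Egr1*), whose log2 fold changes lay between -0.32 and 0.26.

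Genes of amino acid and one-carbon metabolism that ATF4 is known to induce had the highest median log2 fold change of the gene lists. This list too was written with earlier results of these data known, so its counts are a description. Of 22 tested, 17 were higher (3.38% of all tested genes were), 0 lower and 5 did not pass, with a median log2 fold change of 1.41, and 16 were higher with hMut replicates 6 and 9 left out. *Mthfd2*, a mitochondrial enzyme of the folate cycle, rose from 4.13 ± 0.98 to 68.9 ± 30.5 CPM (SD; log2 fold change 4.07, SE 0.31, edgeR adjusted p = 1.81e-06). The serine synthesis enzymes *Phgdh* and *Psat1* rose by 3.94 and 2.74, the asparagine synthetase *Asns* by 3.56, the proline synthesis enzyme *Pycr1* by 2.52 and the cystine transporter *Slc7a11* by 4.58 on the log2 scale, with adjusted p of 1.22e-05 to 1.72e-05. For these 6 genes all 9 hMut hearts were above every Ctrl heart.

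Hypoxia targets were listed because *Adm* is one. Of 18 tested, 3 were higher (against 3.38% of all tested genes) and 0 lower, with a median log2 fold change of 0.13. The count was 2 without hMut replicates 6 and 9. It was 1 with sex as a covariate, with no filter or with replicate number as a block. It was also 1 with Ctrl replicate 1, 2, 5, 6, 7 or 8 or hMut replicate 5, 6 or 7 left out. *Slc2a1*, the glucose transporter GLUT1, rose from 15.6 ± 2.3 to 27.4 ± 7.9 CPM (SD; log2 fold change 0.81, SE 0.16, edgeR adjusted p = 0.00728). *Ero1a*, an oxidase of protein folding, and *P4ha1*, a collagen prolyl hydroxylase, were near the threshold (adjusted p = 0.0392 and 0.0407). *Ero1a* lost its call in 10 of the 17 fits with 1 library left out (all Ctrl hearts but replicate 3, and hMut replicates 5, 6 and 7), and *P4ha1* in 13 (all Ctrl hearts but replicate 4, and hMut replicates 3, 4, 5, 6, 7 and 9), with adjusted p of 0.0506 to 0.0838, and both lost it with sex as a covariate (0.0628 and 0.0505). *Ero1a* and *P4ha1* also lost their calls with no filter (0.0949 and 0.0605) and with replicate number as a block (0.0586 and 0.138). *P4ha1* lost it without hMut replicates 6 and 9 as well (0.108). *Vegfa* and *Pdk1*, which are as well known as targets, had log2 fold changes of 0.03 and -0.02. *Vegfa* and *Pdk1* were named after their values were seen.

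**Figure D3:**
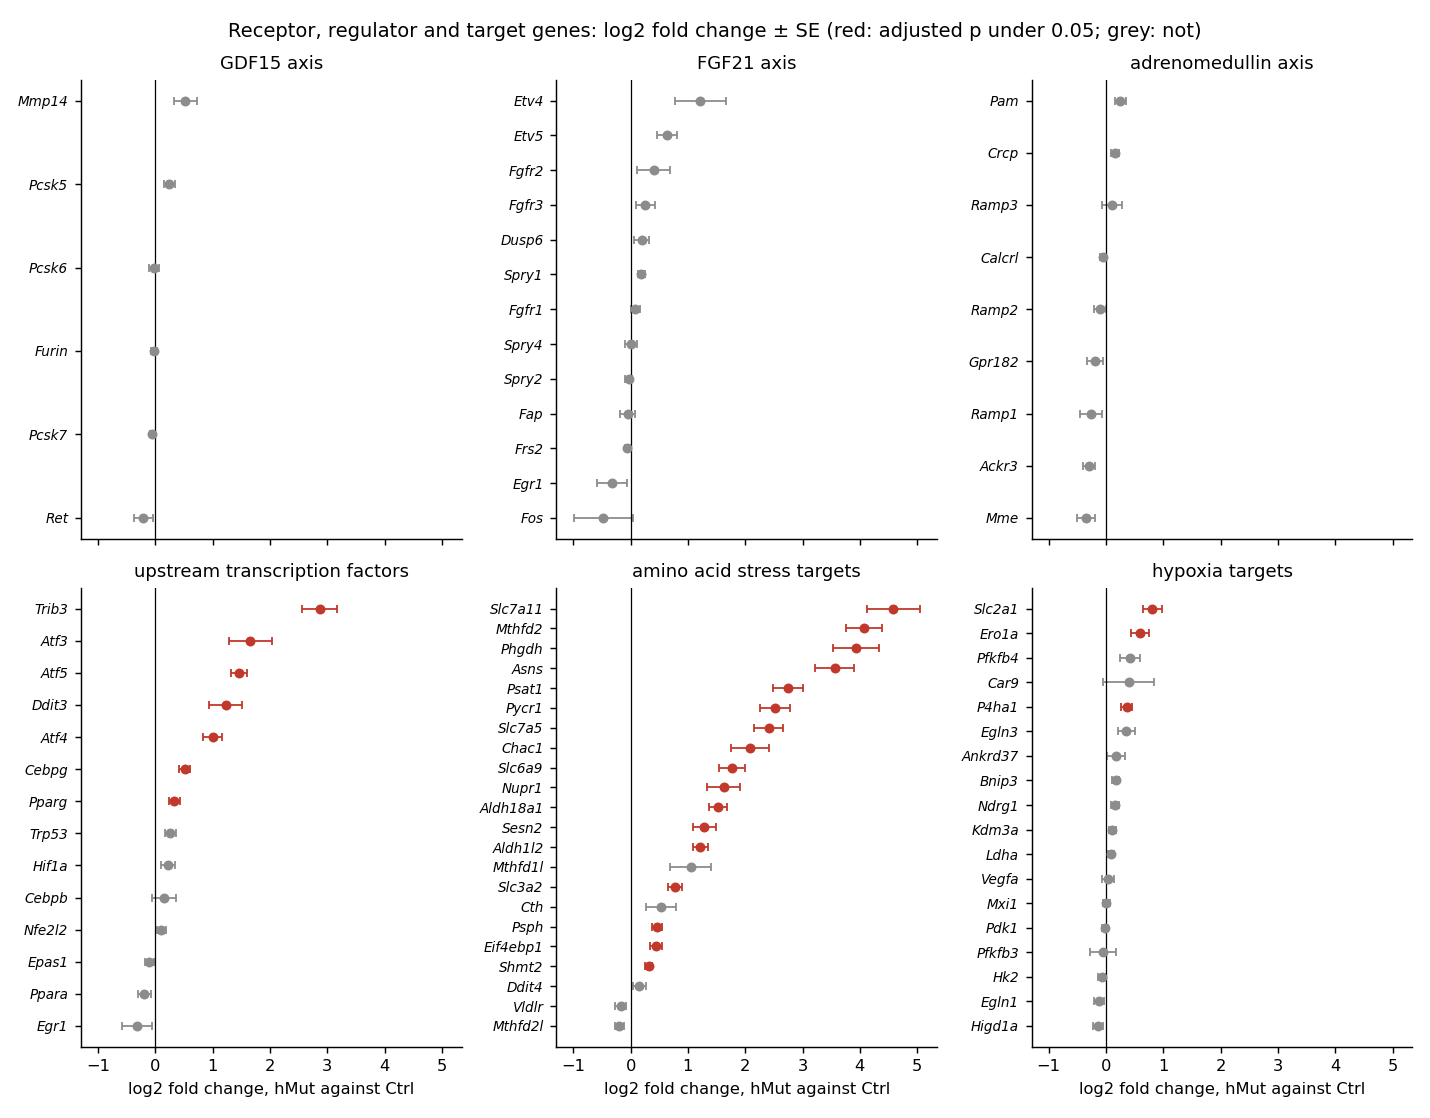
Log2 fold change between hMut and Ctrl hearts with its SE for each tested gene of the 3 peptide axes, the regulators, the amino acid stress targets and the hypoxia targets, in red where edgeR's adjusted p was under 0.05. The panel titled upstream transcription factors shows the regulators and includes the pseudokinase *Trib3*. The 3 axes hold 0 red points, the regulators 7 of 14, the amino acid stress targets 17 of 22 and the hypoxia targets 3 of 18.

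Of 45 other secreted peptides of heart and muscle that were tested, 5 were higher (against 3.38% of all tested genes) and 0 lower, with a median log2 fold change of 0.15. *Ostn*, which encodes the muscle peptide osteocrin (musclin), rose from 0.187 ± 0.101 to 4.05 ± 2.15 CPM (SD; log2 fold change 4.41, SE 0.44, edgeR adjusted p = 1.41e-05). *Inhba*, whose product forms activin A, rose from 2.77 ± 0.63 to 14.7 ± 5.0 CPM (log2 fold change 2.41, SE 0.25, adjusted p = 1.92e-05). Both were higher in all 9 hMut hearts than in every Ctrl heart. The vascular factor *Angpt2* rose by 0.67 (SE 0.15, adjusted p = 0.0150), and it lost its call with replicate number as a block (0.0812). *Ccn2* (connective tissue growth factor) and *Tgfb2* were near the threshold (log2 fold change 1.38 and 0.92, adjusted p = 0.0280 and 0.0369). Both lost their call without hMut replicates 6 and 9, where 3 peptides of the list were higher and 1 lower. With 1 library left out, *Ccn2* lost it without Ctrl replicate 1, 2, 5, 6 or 7 or hMut replicate 5, 6 or 9, and *Tgfb2* without any of the 8 Ctrl hearts or hMut replicate 5, 6, 7 or 9 (adjusted p up to 0.0708). *Tgfb2* also lost it with sex as a covariate (0.0645). *Ccn2* and *Tgfb2* lost theirs with no filter (0.0688 and 0.0942) and with replicate number as a block (0.157 for each). Leaving out hMut replicate 2 raised the count of this list from 5 to 13 (11 higher and 2 lower), and DESeq2 gave 11.

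The hMut hearts differed widely among themselves, and the order of the hearts was then compared between the members. Replicate 9 was highest for all 4. Replicates 1, 2 and 8 were the lowest 3 hearts for *Gdf15*, *Fgf21* and *Adm2*, whereas for *Adm* replicate 1 had rank 4 and replicate 4 was last. Over the 9 hMut hearts, log2 CPM of *Gdf15* and *Adm2* had a Pearson's r of 0.97 and a Spearman's rho of 0.98. For *Fgf21* and *Adm2* r was 0.94 and rho 0.92, and for *Gdf15* and *Fgf21* r was 0.90 and rho 0.93. These are given as a description with no test, since the members were chosen with their order across these hearts in view, and they share libraries. Without the 2 hearts farthest from the median, these r were 0.97, 0.93 and 0.84. Without replicates 6 and 9 they were 0.95, 0.94 and 0.87.

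The ratios of *Gdf15*, *Fgf21* and *Adm2* to one another within a heart spanned a narrower range than the levels of these 3 genes. *Gdf15* had 11.8 to 22.5 times the counts of *Adm2* in the hMut hearts (median 19.7), a 1.91-fold range, whereas the CPM of *Adm2* itself spanned 9.12-fold. The ratio of *Fgf21* to *Adm2* counts lay between 0.622 (replicate 8) and 1.34 (replicate 5), a 2.16-fold range, and that of *Gdf15* to *Fgf21* between 9.40 and 35.1, a 3.73-fold range. The ratios to *Adm*, whose own level spanned 1.79-fold, were wider, with a 13.1-fold range for *Gdf15* and a 7.23-fold range for *Adm2*. *Adm* followed the others less closely. Its r was 0.49 with *Gdf15*, 0.54 with *Fgf21* and 0.41 with *Adm2*, and rho was 0.60, 0.62 and 0.55. These became 0.32, 0.43 and 0.22 for r without replicates 4 and 9. In the 8 Ctrl hearts, where *Gdf15* and *Adm* were the members above the floor in each heart, r between them was 0.59 and rho 0.62 (exact permutation p = 0.134 and 0.115).

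**Figure D4:**
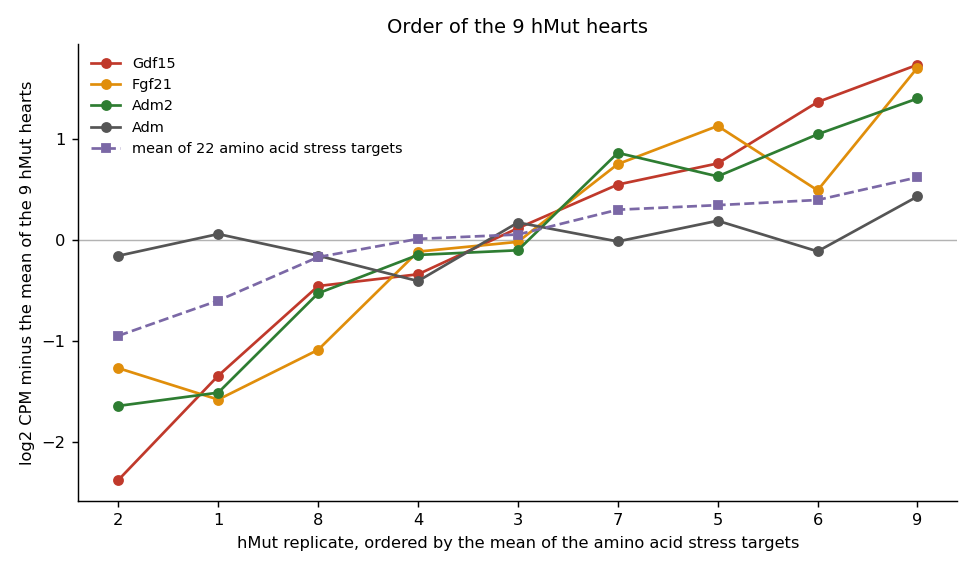
Log2 CPM minus the mean of the 9 hMut hearts for *Gdf15*, *Fgf21*, *Adm2* and *Adm* and for the mean of 22 amino acid stress targets (dashed), with hearts ordered by the latter from replicate 2 to replicate 9. *Gdf15* rises at every step, *Adm2* and *Fgf21* follow with local reversals, and *Adm* stays within a narrow band.

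The order of the hearts was next compared with the amino acid stress targets, none of which is one of the 4 members. Their mean log2 CPM was 0.61 (replicate 2) to 2.18 (replicate 9) above the Ctrl mean in the hMut hearts. *Gdf15* ranked the hearts as this mean did, with rho of 1, the highest value that is possible, and r of 0.99. For *Adm2* r was 0.98 and rho 0.98, for *Fgf21* 0.92 and 0.93, and for *Adm* 0.43 and 0.60. These values are a description with no test. The members were chosen with their order across these hearts in view, and the list with earlier results of these data known. Without replicates 1 and 2, the hearts farthest from the median, r was 0.97 for *Gdf15*, 0.98 for *Adm2*, 0.96 for *Fgf21* and 0.66 for *Adm*. Without replicates 6 and 9, r was 0.99, 0.97, 0.89 and 0.27 in the same order.

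**Figure D5:**
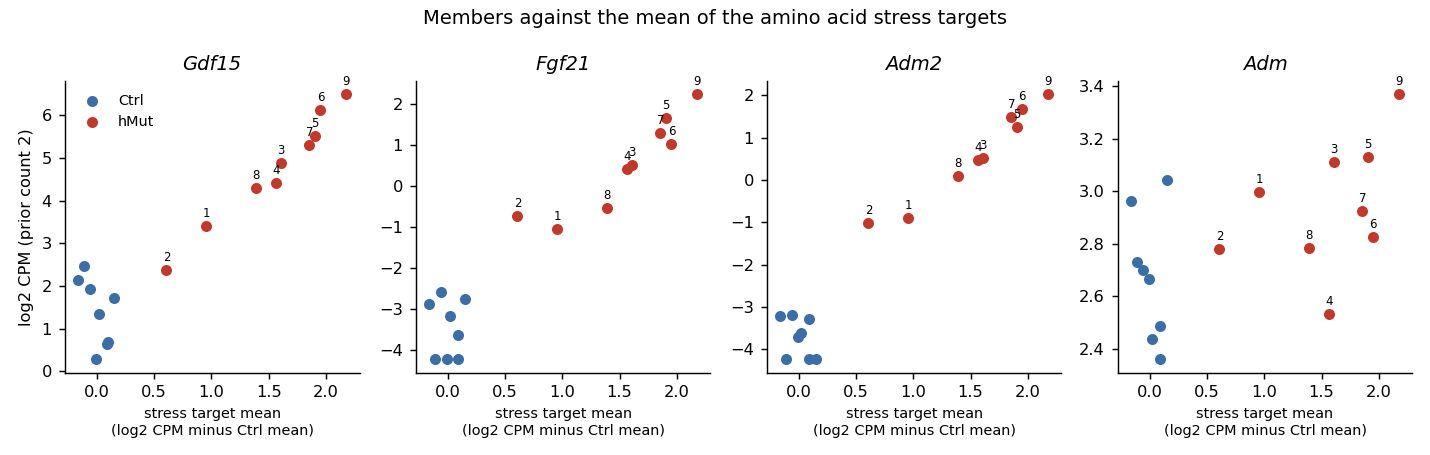
Log2 CPM (prior count 2) of each member against the mean of the amino acid stress targets, given as log2 CPM minus the Ctrl mean, in Ctrl (blue) and hMut hearts (red, with replicate numbers). Each panel has its own vertical axis, and that of *Adm* spans the narrowest range. *Gdf15*, *Adm2* and *Fgf21* climb along the hMut hearts (r 0.99, 0.98 and 0.92), and *Adm* scatters (r 0.43).

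The mtDNA-encoded share of the counts, which was lower in every hMut than in every Ctrl heart, was compared in the same way. Over the 9 hMut hearts r with this share was -0.64 for *Gdf15*, -0.55 for *Adm2*, -0.45 for *Fgf21* and -0.21 for *Adm*. Spearman's rho was -0.52, -0.43, -0.32 and -0.40. These values too are a description with no test, since the members were chosen with their order across these hearts in view. Without replicates 5 and 6, r was -0.50, -0.35, -0.32 and -0.40, and without replicates 6 and 9 it was -0.75, -0.58, -0.64 and -0.68. With 1 heart left out, r was -0.82 to -0.43 for *Gdf15* and -0.70 to -0.34 for *Adm2*. It was -0.64 to -0.29 for *Fgf21* and -0.47 to -0.10 for *Adm*. The -0.82 for *Gdf15* was found without replicate 9.

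Sums of marker genes moved with some of the high hearts. The summed CPM of 8 atrial markers was 88.2 to 213 in Ctrl and 129 to 751 in hMut hearts, highest in replicates 6 and 9. *Nppa*, also on the list of secreted peptides, was its largest part by group mean. It was at 35.9 to 164 CPM in Ctrl and 76.3 to 685 in hMut hearts. Of 6 tested genes 1, *Bmp10*, was higher (log2 fold change 5.58, against 3.38% of all tested genes). *Dkk3*, *Myl4*, *Kcna5* and *Stard10* had log2 fold changes of 1.04, 0.14, 0.10 and -0.27. *Myl7* and *Sln* had at most 19 and 11 counts. These genes were named after their values were seen. The share of atrial tissue was not tested. None of the 10 macrophage genes passed edgeR's adjusted test (6 had an unadjusted p under 0.05). In the 5 hMut hearts whose macrophage sum lay within the Ctrl range, *Gdf15* was at 5.17 to 29.4 CPM, *Fgf21* at 0.433 to 1.38 and *Adm2* at 0.440 to 1.38, against highest Ctrl values of 5.50, 0.113 and 0.0565. In the 4 hMut hearts with an atrial sum within the Ctrl range, *Gdf15* was at 5.17 to 39.6 CPM, *Fgf21* at 0.433 to 2.39 and *Adm2* at 0.440 to 2.75. The cardiomyocyte sum lay within the Ctrl range in 4 hMut hearts and below it in the other 5, with 0 of 10 genes past the adjusted test and 8 at an unadjusted p under 0.05. The part of these cell markers in the levels of the members was not tested. By *Xist* and Y-linked counts, 3 Ctrl and 2 hMut hearts were female. The female hMut hearts held 10.6 and 21.4 CPM of *Gdf15*, against 1.51 to 2.47 CPM in the female Ctrl hearts, and the male hMut hearts 5.17 to 90.2 CPM, against 1.16 to 5.50 CPM. *Adm* was at 5.08 to 5.55 CPM in female and at 6.29 to 8.18 CPM in male Ctrl hearts, with no overlap. In hMut hearts it was at 5.73 and 7.93 CPM in females and at 6.82 to 10.3 CPM in males. A fit with sex as a covariate was among the 27 alternatives, over which the log2 fold change of *Adm* was 0.21 to 0.33. The difference in *Adm* between the sexes was not tested.

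Finally, the tested genes whose log2 CPM was most alike to each member over the 9 hMut hearts were named, out of 13626 genes with a mean of at least 1 CPM, as a description over hearts that share their libraries. For *Gdf15* these were *Map1b*, *Atp6v1h*, *Acta1*, *Slc7a5* and *Pycr1*, with r from 0.987 to 0.994. For *Adm2* they were *Cyb5r1*, *Shisa3*, *Sesn2*, *Slc1a4* and *Nars*, with r from 0.980 to 0.986, and for *Fgf21* they were *Hax1*, *Glce*, *Mall*, *Steap2* and *Trib3*, with r from 0.959 to 0.981. *Pycr1*, *Slc7a5*, *Sesn2* and *Trib3* belong to the lists above. For *Adm* the genes were *Ugp2*, *Mttp*, *Chchd4*, *Eif4e2* and *Ppp2r3c*, with r from 0.895 to 0.951, and none is on a list. An r over 0.9 was found with 277 genes for *Gdf15*, 203 for *Adm2*, 75 for *Fgf21* and 4 for *Adm*.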

How the data were processed

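RNA of 17 whole mouse hearts was grouped by the submitters' labels. The deposited table holds raw, unnormalized counts per gene, which the authors made from poly(A)-selected RNA with fastp, HISAT2 (2.2.1, GRCm39) and featureCounts (2.0.6). A strand setting is not given in the sources used here, so overlapping genes are uncertain. Columns other than counts and gene length were not used. Total counts were 32915159 to 46486964. Genes were filtered with filterByExpr, scaled with TMM and compared between hMut and Ctrl in edgeR's quasi-likelihood test (edgeR 4.0.16, R 4.3.3), with Benjamini-Hochberg adjustment over 16195 genes and a threshold of 0.05. Standard errors are |log2 fold change| over the square root of F. The fit was tested on simulated counts. Correlations used log2 CPM (prior count 2). Those across hMut hearts are given without a test. The relation over the Ctrl hearts has a two-sided exact permutation p that is not adjusted. Sequences came from RefSeq promoter windows and GRCm39.

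Members and gene lists were chosen with earlier results of these data known. Genes were named by rule: the members, the genes of the 3 axes and of the families, up to 6 genes per other list with the smallest adjusted p past the threshold, and the 5 genes most alike to each member. Alternatives were DESeq2 1.42.0, limma-voom (limma 3.58.1), RLE and upper-quartile factors, other filters, removal of mtDNA-encoded genes, a sex covariate read from counts, a replicate block, another prior count and left-out libraries. Tables and plots were made with Python 3.11.15 (scipy 1.17.1, numpy 2.4.6, matplotlib 3.10.9). Intervals and floors cover counting error only. The mtDNA mutation burden of each heart was not used here.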

Additional observations from a re-analysis of the deposited data

Results flagged for a closer look

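In each group, the 4 members, *Polg*, the mtDNA share and the summed levels of the gene lists were searched for a heart standing apart from its neighbour by much of the spread of that group (Dixon's criterion). Among 48 groups of values 9 had such a heart, where chance gives about 1 in 20, and none of the 9 was a member. In Ctrl replicate 3 mtDNA-encoded transcripts took 30.9% of counts (next 26.7%), the cardiomyocyte markers summed to 58630 CPM (next 67707), the T and B cell markers to 50.8 CPM (next 18.8) and the hepatocyte markers to 397 CPM (next 26.5). In Ctrl replicate 4 the hypoxia targets summed to 2808 CPM (next 2659). In hMut replicate 6 the macrophage markers summed to 1272 CPM (next 665), the T and B cell markers to 72.8 CPM (next 12.9) and the smooth muscle and pericyte markers to 967 CPM (next 1341). In hMut replicate 4 the hepatocyte markers summed to 127 CPM (next 12.5). In Ctrl replicate 3, *Gdf15*, *Fgf21* and *Adm2* had 102, 3 and 0 counts, within the range of the other Ctrl hearts, and *Adm* had its highest Ctrl level there (8.18 CPM).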

How the results depend on the processing

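Each member kept the direction of its difference under all 27 alternatives, and each log2 fold change moved by less than the spread between hearts. It was between 3.08 and 3.85 for *Gdf15*, 4.78 and 5.56 for *Fgf21*, 5.29 and 6.14 for *Adm2* and 0.21 and 0.33 for *Adm*. The count of 724 genes past the threshold moved by more than 1.5 times with DESeq2 (1517), limma-voom with quality weights (2081), no filter (440), without hMut replicates 6 and 9 (440) and with the replicate block (198). With 1 library left out it lay between 390 and 1768, and it moved by more than 1.5 times without Ctrl replicate 1, 2, 5, 6, 7 or 8 or hMut replicate 1, 2, 5, 7 or 9. Of the listed pathway genes, 32 passed, and 24 to 46 under the alternatives. The labels do not say whether replicate numbers pair hearts. The correlation of deviations was over 0.1 in 1 of 8 same-numbered pairs (-0.23 to 0.34), and 1 of 8 hearts correlated best with its own number. Such correlations cannot exclude a pairing. With the replicate block, hMut replicate 9 has no partner, 24 pathway genes passed, and the log2 fold changes were 3.15 for *Gdf15*, 4.78 for *Fgf21*, 5.61 for *Adm2* and 0.21 for *Adm*. Relations across hMut hearts between members, with the stress targets and with the mtDNA-encoded share are a description, so no calls are counted for them. With 1 heart left out, r was 0.86 to 0.92 for *Gdf15* with *Fgf21*, 0.96 to 0.98 for *Gdf15* with *Adm2* and 0.92 to 0.96 for *Fgf21* with *Adm2*. With the stress targets r was 0.97 to 0.99 for *Gdf15*, 0.97 to 0.99 for *Adm2*, 0.90 to 0.96 for *Fgf21* and 0.19 to 0.56 for *Adm*. The r without replicates 6 and 9 were added after seeing the data. Of 1323 refits of 49 named pathway genes, 87 lost a call and 11 gained one. With 1 library left out, the log2 fold change changed sign for some genes that had no call. These were *Fos* (-0.76 to 0.13), *Fap* (-0.11 to 0.01), *Ramp3* (-0.03 to 0.18), *Furin* (-0.04 to 0.01), *Pcsk6* (-0.05 to 0.02) and *Spry4* (-0.04 to 0.07). The cause of these changes was not tested. Depth limits the Ctrl values of *Fgf21* and *Adm2*, which rest on 13 and 8 counts.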
